A study of Mus musculus with 20 samples.

Results

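The heat shock proteins and their DnaJ (J-domain) partners were followed in the cerebellum of mice that carry an expanded Atxn3 gene. The members were the protein-coding genes whose symbols belong to the Dnaja, Dnajb, Dnajc, Hspa, Hspb and Hsp90 series, together with Hsph1, Hspd1, Hspe1 and Hsf1. This rule gave 71 genes of the 29200 gene IDs in the table. Of these, 60 reached a mean of 50 counts over the 20 libraries and were tested; the other 11 were Hspa1a, Hspa1l, Hspb2, Hspb3, Hspb7, Hspb9, Dnajb3, Dnajb7, Dnajb8, Dnajb13 and Dnajc22. The rule selects symbols by family and uses no measured value, but it was set with earlier results of these data known.

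Heat shock proteins bind unfolded stretches of other proteins, keep them from clumping and help them to fold or to be degraded. HSP70 does this through cycles of ATP hydrolysis that J-domain proteins (the DnaJ families) start and that exchange factors such as the HSP110 proteins end, while HSP90, the mitochondrial chaperonins and the ATP-independent small heat shock proteins take over other clients. Under heat or misfolded protein the transcription factor Hsf1 switches on the inducible members, and in polyglutamine diseases several of these chaperones sit in, or act against, the protein aggregates.

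RNA-seq of whole cerebellum was available for 4 groups of 5 male C57BL6/N mice. WT/WT mice carried unchanged alleles and 304Q/304Q mice carried the expansion in both murine Atxn3 alleles, each at 2 months and at 12 months of age. The genotype labels of the WT/WT mice name ataxin-2, whereas the study's methods describe a knock-in at Atxn3, the gene of spinocerebellar ataxia type 3. The expansion was inserted with zinc-finger nucleases as an interrupted CAACAG repeat under the endogenous promoter, and all 304Q/304Q mice came from a single founder line. Every mouse was killed with CO2, its cerebellum was kept in RNAlater, and the libraries were made from polyA RNA with a stranded kit. Heterozygous mice were not analysed here.

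The 20 libraries held 11385380 to 27636687 counts each. Markers of the cerebellum were present in every library, with summed normalized counts of 98561 to 129556 for 10 granule cell genes and 97554 to 141035 for 10 Purkinje cell genes, against 11 to 41.3 for 4 germ cell genes of the testis. Atxn3 itself ran from 240 to 332 normalized counts in the WT/WT group of 2 months and from 158 to 241 in 304Q/304Q mice of that age, and 202 to 234 against 181 to 220 at 12 months. Neither difference passed an adjusted p of 0.05 in edgeR (log2 fold change -0.54, adjusted p = 0.0674, and -0.13, adjusted p = 0.519), so that the level of Atxn3, which a knock-in need not change, gives no check of the genotype labels. Because whole tissue was sequenced, fewer cells of a type and less RNA per cell cannot be told apart in any value given here.

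The members together took 0.867% of all counts, and 45.5% of that fell on 3 cytosolic genes, Hspa8, Hsp90aa1 and Hsp90ab1. As a level per exon length (normalized CPM per kb of exon, mean of 20 mice), Hsp90ab1, the constitutive HSP90, led with 525. Hspa8, the constitutive HSP70 that also strips clathrin from vesicles, followed with 380.3, and Hsp90aa1, the stress-inducible HSP90, with 187. Among the chaperones of the organelles, Hspa9 of the mitochondrion stood at 63.1, Hsp90b1 of the endoplasmic reticulum at 58.7, the mitochondrial chaperonin Hspd1 at 58.5 and its lid Hspe1 at 27.5, and Hspa5 (BiP) of the endoplasmic reticulum at 50.2.

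The J-domain proteins with the highest levels per exon length were Dnaja2 at 57.3, Dnajc5, the cysteine string protein of synaptic vesicles, at 48, Dnajc6, the neuronal auxilin that recruits Hspa8 to clathrin coats, at 45.1, Dnajc8 at 37.2 and Dnajb2, a neuronal J-domain protein that binds ubiquitin, at 30.7. Hspa4, an exchange factor of the HSP110 class, stood at 37.2, and Hsph1 of the same class at 16.8. The small heat shock proteins were lower, with Hspb8 at 15.7, Hspb6 at 9.56 and Hspb1 (Hsp27) at 5.87 in the same unit. Hsf1 stood at 8.16. The classical inducible pair Hspa1a and Hspa1b was among the lowest of the family, at 1.08 and 1.35. Dnajb8, known like Dnajb6 for suppressing polyglutamine aggregation, was close to absent at 0.139, against 15.3 for Dnajb6.

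**Figure D1:**
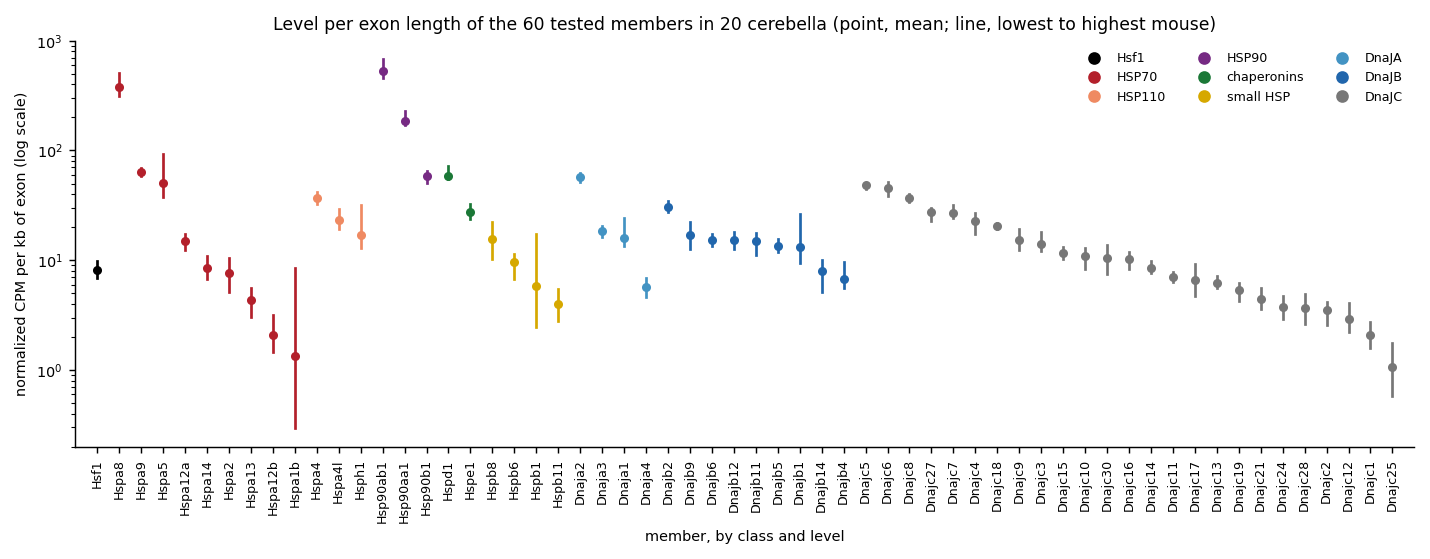
Level of each of the 60 tested members per exon length (vertical axis, normalized CPM per kb of exon, log scale), ordered by class along the horizontal axis; points are means of 20 mice and lines run from the lowest to the highest mouse. Hsp90ab1 at 525 and Hspa8 at 380.3 stand highest, and Hspa1b at 1.35 has a long line relative to its mean.

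Hspa1a and Hspa1b are near-identical neighbours, and their rows need to be read together. Their longest transcripts were 93.6% identical over the aligned bases, and 47.1% of all 100-base windows of Hspa1a, about the length of a read, also occurred in Hspa1b. How reads that map to both were counted is not given in the sources used here, so the split of counts between this pair is uncertain. Hspa1l held 4.67% of the windows of Hspa1a, and Hspa2, Hspa5 and Hspa8 held 0%. In addition, 27 of the 71 members share exon bases with another annotated gene, for example Hspa12a with Eno4 and Hspd1 with Hspe1, both on opposite strands. The strand setting of the counting is not given in the sources used here.

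Hsf1 binds heat shock elements, runs of inverted GAA units, and the RefSeq start-site windows (GRCm38.p6, 250 bases before to 50 bases after each start site) gave a window for 57 of the 71 members. The letters GAANNTTC or TTCNNGAA, which hold 2 units and are each their own reverse complement, occurred in the windows of 15 of these 57 members (26.3%) and in 15.1% of all 32851 windows. The letters GAANNTTCNNGAA or TTCNNGAANNTTC, the reverse complements of each other, hold 3 units and contain the shorter motif. They occurred in 4 members (7.02%: Dnajb6, Hspd1, Hspe1 and Hsph1) and in 0.603% of all windows. A gene can have several windows: over genes, the shares were 17% and 0.662%. No window was at hand for Hsf1, Hspa13, Hspa8, Hspa9, Hsp90aa1, Hsp90ab1, Hspb2, Dnajc11, Dnajc12, Dnajc18, Dnajc2, Dnajc22, Dnajc30 and Dnajc5. A match is a run of letters, not a bound site.

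The 80-base stretches below lie before the start sites of the inducible members described later and of members with a 3-unit match ahead of the start site; they are written 5′ to 3′ on the strand of the gene, with the matched letters in capitals. Those of Hspa1a (chr17:34972217-34972296, minus strand) and Hspb1 (chr5:135887776-135887855, plus strand) hold 2-unit matches, and those of Hspe1 (chr1:55088028-55088107, plus strand) and Dnajb6 (chr5:29735818-29735897, plus strand) hold 3-unit matches.
Hspa1a: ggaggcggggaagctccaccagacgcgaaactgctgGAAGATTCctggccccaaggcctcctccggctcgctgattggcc
Hspb1: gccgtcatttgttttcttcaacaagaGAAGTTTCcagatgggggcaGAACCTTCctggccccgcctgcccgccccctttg
Hspe1: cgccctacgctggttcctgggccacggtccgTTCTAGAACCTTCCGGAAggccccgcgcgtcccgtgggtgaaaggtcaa
Dnajb6: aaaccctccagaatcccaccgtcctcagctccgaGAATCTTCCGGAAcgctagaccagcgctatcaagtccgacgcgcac
The Hspa1b stretch (chr17:34959299-34959378, minus strand) has the same letters as that of Hspa1a, and the full windows of this pair differed at 4 of 300 bases. In Hsph1 the 3-unit matches begin 15 and 36 bases after the start site, so no stretch of it is shown. Hspd1 lies head to head with Hspe1 and its own stretch covers the same coordinates on the other strand. Dnajb1, a J-domain partner of HSP70, has a window but no match in it, which says only that these letters are not in those bases.

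At 2 months, 304Q/304Q and WT/WT mice were compared at the age the study took as pre-symptomatic. No member passed an adjusted p of 0.05 in the quasi-likelihood test of edgeR (0 of 60), where 0.0823% of all 12153 tested genes did, and none was a differentially expressed gene (DEG, with an absolute log2 fold change of at least 0.5 as well), where 0.0165% of genes were. DESeq2 also called 0 members. At an unadjusted p under 0.05 there were 4 members (6.67%, beside 5.33% of all tested genes), Hspb8, Hspa12a and Dnajc1 lower and Dnajc17 higher. The median log2 fold change was -0.011 over the members and -0.002 over all tested genes.

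Hspb8, the small heat shock protein that works with the co-chaperone Bag3 in clearing misfolded protein, stood nearest to a call at 2 months. Its normalized counts were 392, 411, 428, 466 and 455 in the 5 WT/WT mice and 332, 288, 404, 318 and 358 in the 5 304Q/304Q mice. Only 1 of the 304Q/304Q mice reached into the WT/WT range. The log2 fold change was -0.34 (SE 0.0887, unadjusted p = 0.000641, adjusted p = 0.288 in edgeR), and with surrogate variables as covariates Hspb8 was the 1 member called at this age, by edgeR and by DESeq2. Hspa12a, an atypical HSP70, was the 1 member whose groups did not overlap (1.05% of all tested genes did not). Its normalized counts ran from 2182 to 2262 in the WT/WT group and from 1941 to 2086 in the 304Q/304Q group, a log2 fold change of -0.13 (SE 0.0438, adjusted p = 0.713). Hspa1b had the lowest log2 fold change of the family at this age, -0.78, with an SE of 0.556 and an adjusted p of 0.949.

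At 12 months, the age the study took as symptomatic, 8 of the 60 members passed an adjusted p of 0.05 (13.3%), beside 12.3% of all tested genes, a share near that background. Lower in 304Q/304Q mice were the inducible HSP70 Hspa1b, the small heat shock proteins Hspb1 and Hspb8, the endoplasmic reticulum chaperone Hspa5, and Hspa12a and Dnajb2. Higher were Dnajc6 and Dnajc27, a Rab-like GTPase with a J domain. Hspa1b, Hspb1 and Hspa5 were DEGs, which is 5% of the members beside 2.98% of all tested genes. The median log2 fold change of the 60 members was -0.024.

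Hspb8 had the smallest adjusted p of the family at 12 months. It held 624, 555, 578, 584 and 505 normalized counts in WT/WT mice and 414, 455, 426, 403 and 362 in 304Q/304Q mice. Every 304Q/304Q mouse lay below every WT/WT mouse. The level was 0.724 times that of WT/WT (log2 fold change -0.47, SE 0.0878, adjusted p = 0.000515 in edgeR).

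Hspb1 held 258, 110, 142, 78.2 and 173 normalized counts in WT/WT mice of 12 months and 66.9, 67.6, 47.5, 79.6 and 87.3 in 304Q/304Q mice. The groups overlapped through replicate 4 of WT/WT, and the WT/WT mice differed among themselves far more than the 304Q/304Q mice did. The log2 fold change was -1.12 (SE 0.273, adjusted p = 0.00755). With surrogate variables in edgeR the call was lost (adjusted p = 0.0606).

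Hspa1b, the gene with the widest difference of the family at 12 months, held 341, 56.5, 97.3, 42.1 and 123 normalized counts in WT/WT mice and 25.7, 26.6, 26.3, 15.3 and 51.2 in 304Q/304Q mice. Replicates 1, 3 and 5 of WT/WT stood above every other mouse of the study, while replicates 2 and 4 lay close to the highest 304Q/304Q mouse. The log2 fold change was -2.16 (SE 0.499, adjusted p = 0.00728), and -1.44 without replicate 1 of WT/WT (SE 0.343, adjusted p = 0.00501). The call was lost with surrogate variables (adjusted p = 0.105 in edgeR, 0.0603 in DESeq2) and in a fit of only these 10 mice (adjusted p = 0.0704).

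Hspa1a, whose mean of 44.4 counts kept it out of the test, held 266, 23.8, 72.7, 34.1 and 84.4 normalized counts in WT/WT mice of 12 months and 20.6, 22.2, 31.3, 29.4 and 43.2 in 304Q/304Q mice. The same 3 WT/WT mice were highest as for Hspb1 and Hspa1b. With the limit lowered to a mean of 10 counts, the log2 fold change of Hspa1a was -1.70 (SE 0.469, adjusted p = 0.0242 in edgeR). The counts of Hspa1a and Hspa1b were also summed, a fit chosen after seeing the data. In it the pair fell by 1.96 on the log2 scale (SE 0.462, adjusted p = 0.0092 in edgeR). This sum is the same whichever gene of the pair a read was counted in. It cannot restore shared reads that were left uncounted, and it was not refitted with surrogate variables or in only these 10 mice.

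Hspa5 held 5583, 2953, 3730, 2923 and 4328 normalized counts in WT/WT mice of 12 months and 2446, 2284, 2567, 2608 and 3076 in 304Q/304Q mice. Again replicates 1, 3 and 5 of WT/WT were the high ones, and replicates 2 and 4 fell within reach of the 304Q/304Q mice. The log2 fold change was -0.59 (SE 0.182, adjusted p = 0.0442), and -0.42 without replicate 1 of WT/WT (adjusted p = 0.0926). Of 30 alternative fits, 13 kept the call. Hsp90b1, Dnajb9, Dnajc3 and Dnajc10, which are not all of the other members of the endoplasmic reticulum, did not pass. The log2 fold change was -0.11 for Hsp90b1 (SE 0.0559, adjusted p = 0.209), 0.11 for Dnajb9 (SE 0.144, adjusted p = 0.672), -0.02 for Dnajc3 (SE 0.0817, adjusted p = 0.88) and 0.23 for Dnajc10 (SE 0.0843, adjusted p = 0.0729). With surrogate variables Dnajc10 passed, with a log2 fold change of 0.24 and an adjusted p of 0.0487 in edgeR and with 0.25 and 0.0449 in DESeq2.

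Hspa12a and Dnajb2 showed narrow differences in abundant transcripts. Normalized counts of Hspa12a ran from 1802 to 2012 in the WT/WT group and from 1644 to 1744 in the 304Q/304Q group, without overlap (log2 fold change -0.18, SE 0.0442, adjusted p = 0.00645). Dnajb2 held 1901 to 2123 against 1706 to 1885, also without overlap (log2 fold change -0.16, SE 0.0532, adjusted p = 0.0437). Hspa12a, Dnajb2 and Hspb8 were the 3 members whose groups did not overlap at 12 months (5%, beside 8.94% of all tested genes). The call of Dnajb2 held in 14 of 30 alternative fits and that of Hspa12a in 29 of 30.

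Both members that rose belong to the DnaJC class. Dnajc6 held 3921, 3611, 3386, 3265 and 3521 normalized counts in WT/WT mice and 3737, 4012, 3935, 4334 and 4174 in 304Q/304Q mice, with 1 WT/WT mouse inside the 304Q/304Q range (log2 fold change 0.19, SE 0.0573, adjusted p = 0.0274). Dnajc27 held 1725, 2021, 1945, 2108 and 1644 against 2177, 2180, 2049, 2122 and 2194. Here replicates 1 and 5 of WT/WT were the lowest mice of the study (log2 fold change 0.18, SE 0.057, adjusted p = 0.0329). The calls held in 25 and 20 of 30 alternative fits.

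By class, the calls at 12 months fell on 3 of 9 tested HSP70 genes and 2 of 4 tested genes of the Hspb series, all lower. They also fell on 1 of 9 DnaJB genes, lower, and on 2 of 25 DnaJC genes, higher. Over all members 6 of 60 were lower (10%), beside 7.21% of all tested genes, and 2 were higher (3.33%), beside 5.09%. No class was tested against these shares. None of the 3 HSP110, 3 HSP90, 2 chaperonin and 4 DnaJA genes, nor Hsf1, passed the test. Among abundant members without a call, and for Hsf1, the values were as follows. The log2 fold change was -0.01 for Hsp90aa1 (SE 0.0637, adjusted p = 0.921), -0.06 for Hsp90ab1 (SE 0.0656, adjusted p = 0.624), -0.07 for Hspa8 (SE 0.1, adjusted p = 0.708), -0.03 for Hspa9 (SE 0.05, adjusted p = 0.734) and 0.00 for Hsf1 (SE 0.0701, adjusted p = 0.999). Dnajb6, which suppresses polyglutamine aggregation, stood at 0.08 (SE 0.0554, adjusted p = 0.375). Hspe1 stood at -0.19 (SE 0.0757, adjusted p = 0.102), its partner Hspd1 at -0.10 (SE 0.0585, adjusted p = 0.295), Hspa4 at -0.15 (SE 0.0553, adjusted p = 0.0746) and Hsph1 at -0.38 (SE 0.17, adjusted p = 0.159).

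**Figure D2:**
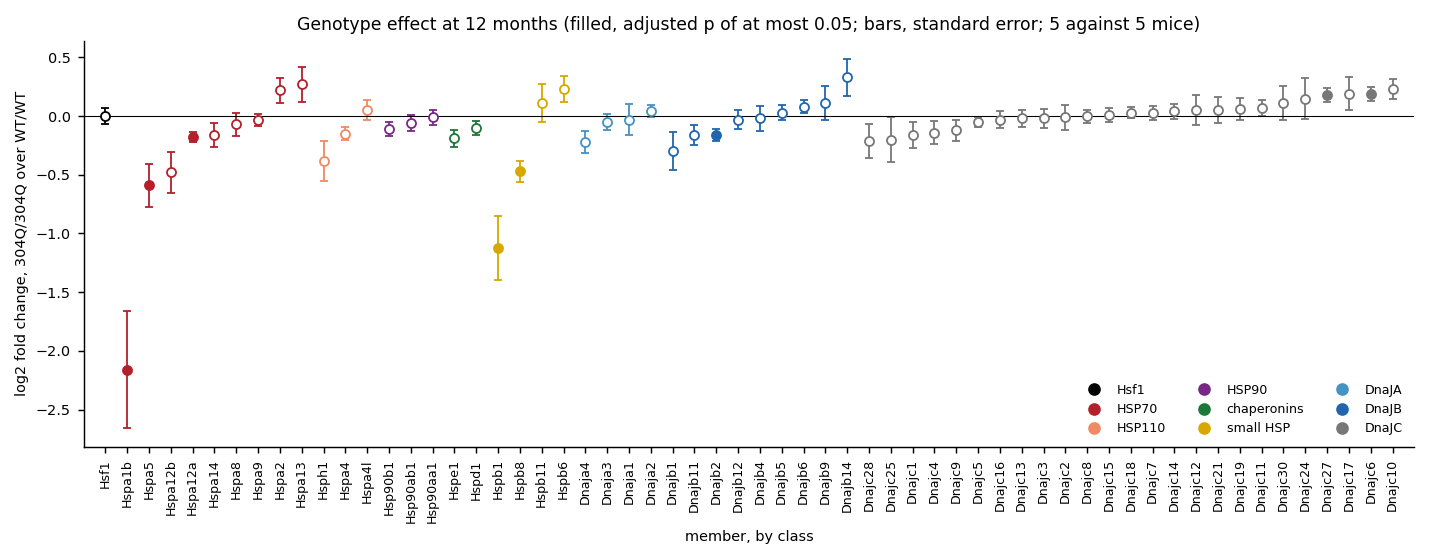
Log2 fold change of 304Q/304Q over WT/WT at 12 months (vertical axis) for the 60 tested members in order of class (horizontal axis); points are edgeR estimates from 5 against 5 mice, bars are standard errors, and filled points passed an adjusted p of 0.05. Hspa1b at -2.16 and Hspb1 at -1.12 lie lowest, with the widest bars, and most members of every class lie near 0.

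The WT/WT mice of 12 months were not alike in these genes. Replicates 1, 3 and 5 were the 3 highest of the 5 for 17 of the 60 tested members (28.3%, beside 11.5% of all tested genes), among them Hspa1b, Hspb1, Hspa5, Hspa8, Hsp90aa1, Hsp90ab1, Hsph1, Hspd1, Hspe1, Dnaja1, Dnajb1 and Dnajb4, and the 3 lowest for 5 members (8.33%, beside 12.1%), Dnajc27 among them. These 3 mice were picked out after the values of the members were seen, so the shares describe them and test nothing. Hsph1 held 3299, 1479, 1983, 1548 and 1922 normalized counts in these mice, and Dnajb1 held 1208, 577, 816, 557 and 772. The median coefficient of variation of the members was 10.8% in this group and 7.7% to 8.34% in the other 3 groups. Over all tested genes it was 10.8% in this group and 9.09% to 10.4% in the others.

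Across mice, with group means removed, the deviations of 9 members and of Cirbp and Fos were set against those of Hspa1b. These 9 members included Hspa8, the constitutive HSP70. Values were log2 CPM, with 11 relations per set of mice. The permutation tests were 2-sided with 100000 resamples, with Benjamini-Hochberg adjustment within a set. Among the 10 mice of 12 months, Dnajb1 gave a Pearson r of 0.94 (permutation p = 0.00332, adjusted p = 0.0192) and a Spearman rho of 0.84 (permutation p = 0.0165, adjusted p = 0.0454), and r was 0.82 without the 2 mice farthest from the median. Hspa8 gave r = 0.91 (permutation p = 0.00389, adjusted p = 0.0192) and rho = 0.87 (permutation p = 0.0108, adjusted p = 0.0454), with r = 0.81 without those 2 mice. Hspa1a gave r = 0.89 and rho = 0.88, and Hspb1 r = 0.83 and rho = 0.82, but r for Hspb1 dropped to 0.47 without those 2 mice. The part of reads that map to both Hspa1a and Hspa1b in the relation of this pair was not tested. In this set 7 of 11 relations passed by r, and 5 by both r and rho. Hsph1 and Hspe1 passed by r only. Hsp90aa1, Dnaja1 and Hspd1 passed by neither (permutation test of r, adjusted p = 0.0857 for each), nor did Fos. Without those 2 mice r was 0.10 for Dnaja1 and 0.01 for Hspd1.

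Cirbp, which is induced by cold and repressed by heat, gave r = -0.85 (permutation p = 0.0065, adjusted p = 0.0192) and rho = -0.82 (permutation p = 0.0209, adjusted p = 0.0459) among the mice of 12 months. Among the 10 mice of 2 months, 0 of 11 relations passed (lowest adjusted p = 0.586, permutation test). In the 15 mice outside the WT/WT group of 12 months, a set chosen after seeing the data, 0 of 11 passed as well (lowest adjusted p = 0.704, permutation test). Over all 20 mice 1 passed, that of Dnajb1 (r = 0.79, permutation p = 0.00261, adjusted p = 0.0287; rho = 0.57, permutation p = 0.0283, adjusted p = 0.16). A p that misses the threshold in these sets does not show that the members varied apart there: in the 15 mice Dnajb1 gave r = 0.43 (permutation p = 0.125, adjusted p = 0.704), rho = 0.30 (permutation p = 0.285, adjusted p = 0.859) and r = 0.07 without the 2 mice farthest from the median.

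Among the 304Q/304Q mice of 12 months, replicate 5 was the highest of the 5 for Hspa1a at 43.2 normalized counts, Hspa1b at 51.2, Hspb1 at 87.3, Hspa5 at 3076, Hsph1 at 1810 and Dnajb1 at 801. The same mouse was highest for Bag3 at 738 and Per1 at 2209, and lowest for Cirbp at 1086 and Rbm3 at 1621. It was the highest of its group for 17 of the 60 tested members (28.3%) and for 25.1% of all tested genes. It was the lowest for 14 members (23.3%, beside 24.9% of all tested genes), Hspb8, Hspa9, Dnajb2 and Dnajb9 among them. Both shares were near those of all tested genes, and this mouse was singled out after its values were seen.

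**Figure D3:**
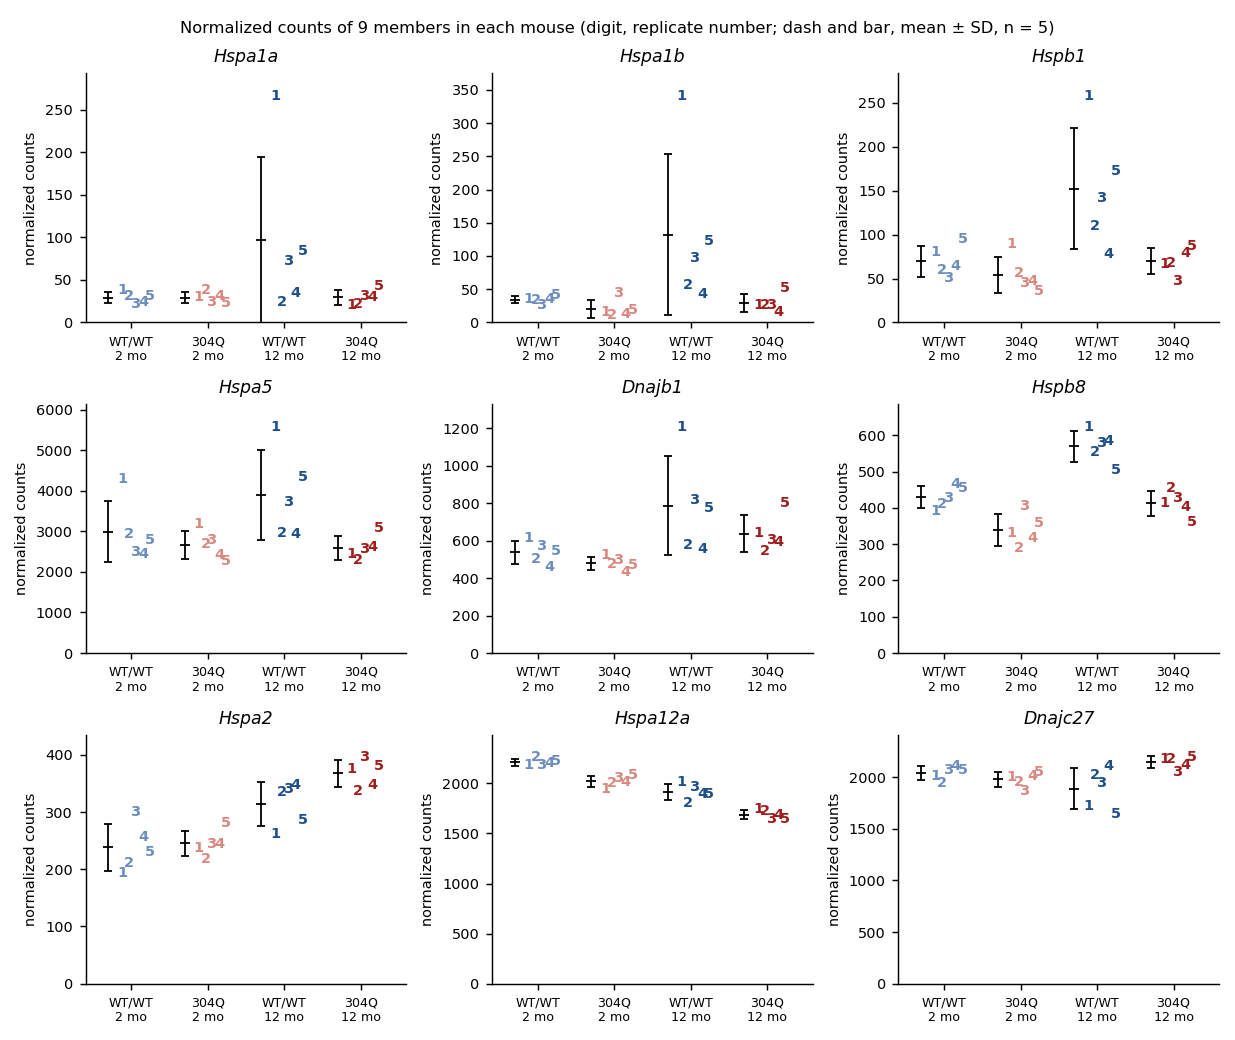
Normalized counts (vertical axes, from 0) of 9 members in each of the 20 mice by group (horizontal axes); digits are replicate numbers at the mouse's value, and the dash and bar give mean ± SD of 5 mice. In WT/WT mice of 12 months replicate 1 stands highest for Hspa1a at 266, Hspa1b at 341 and Hspb1 at 258, whereas Hspb8 separates the genotypes at 12 months without overlap.

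Other genes moved with the same mice and groups. In WT/WT mice of 12 months Cirbp held 646, 1111, 843, 1292 and 674 normalized counts and the clock gene Per1 held 3407, 2423, 4052, 2382 and 3911. Replicates 1, 3 and 5 were thus the 3 lowest for Cirbp and the 3 highest for Per1, while the 304Q/304Q mice of that age held 1086 to 1748 and 1305 to 2209. Per1 was lower (log2 fold change -1.08, SE 0.263, adjusted p = 0.0124) and Rbm3, like Cirbp a cold-induced RNA-binding protein, was higher in 304Q/304Q mice at 12 months (log2 fold change 0.39, SE 0.119, adjusted p = 0.0383). Cirbp had a log2 fold change of 0.67 (SE 0.232, adjusted p = 0.0695). The part of body temperature or of the hour of collection, which is not given in the sources used here, in the values of the inducible members was not tested.

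Some lists of other cell types and states also differed between the genotypes at 12 months. At that age 7.21% of all tested genes were lower in 304Q/304Q mice and 5.09% were higher. Of 10 Purkinje cell markers 8 were lower, with summed normalized counts of 97554 to 104806 in 304Q/304Q mice and 124992 to 134920 in WT/WT mice. Of 10 markers of myelinating oligodendrocytes 4 were lower (48282 to 67087 against 73584 to 83554), and of 10 markers of astrocytes and Bergmann glia 4 were lower (74865 to 80063 against 89772 to 91916). Of 5 tested blood genes 4, all haemoglobins, were lower (1367 to 1596 against 1649 to 3504). Of 11 clock genes 5 were lower (14848 to 16050 against 18371 to 22910), and of 8 tested glucocorticoid-responsive genes 4 were lower (4133 to 4834 against 6309 to 8999). Of 11 tested immediate early genes 1, Arc, was higher, and the summed normalized counts of the whole list of 13 were 3755 to 9959 against 7224 to 11398. Of 5 tested choroid plexus markers 0 passed in edgeR and 0 had an unadjusted p under 0.05, but the sum of all 10 was high in single libraries. It came to 9431, 41795, 2259, 2462 and 20110 normalized counts in the WT/WT mice and to 30171, 2340, 28022, 1794 and 1968 in the 304Q/304Q mice of 12 months. Sums overlapped between the genotypes for granule cell markers (98561 to 109835 in 304Q/304Q mice against 102744 to 110886) and microglia markers (2720 to 3581 against 2641 to 3238). They also overlapped for the endothelial, vascular and ependymal lists. No list had a gene at 0 in all libraries. Their part in the calls of the members at 12 months was not tested.

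**Figure D4:**
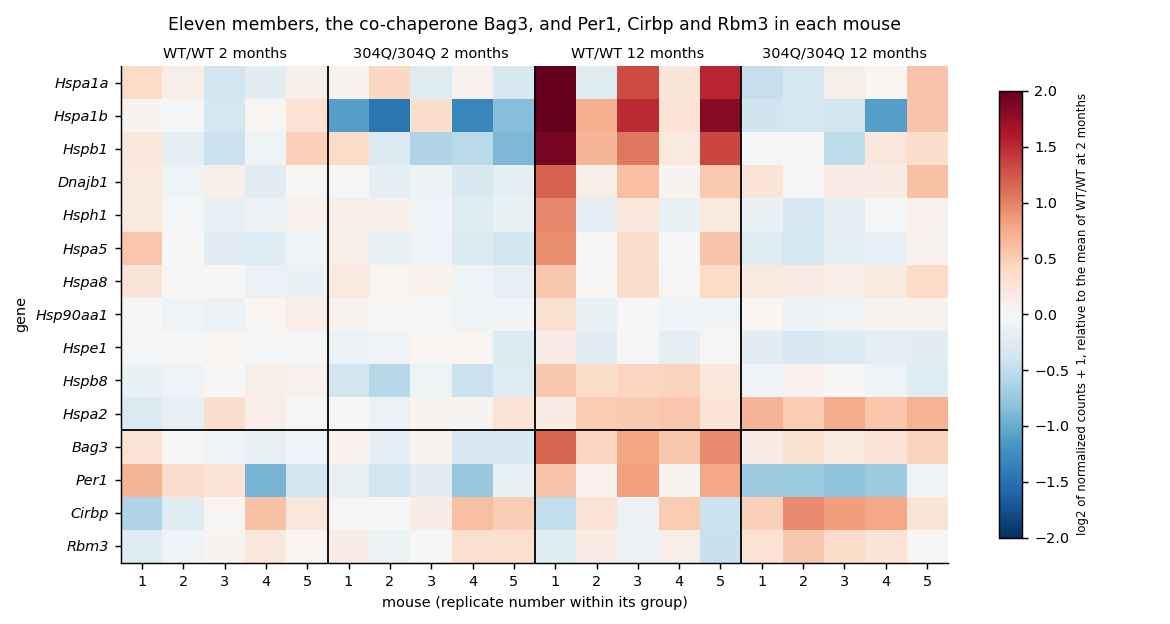
Log2 of normalized counts + 1 of 11 members, Bag3, Per1, Cirbp and Rbm3 (rows) in the 20 mice (columns, replicate numbers within the 4 groups), relative to the mean of WT/WT at 2 months and with the colours ending at 2 in either direction. Replicates 1, 3 and 5 of WT/WT at 12 months are red for Hspa1a, Hspa1b, Hspb1, Dnajb1 and Per1 and blue for Cirbp. They are not all red for Hsp90aa1 and Hspe1. Hspb8 is red in all 5 mice of that group.

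The comparison of 12 with 2 months within WT/WT mice asked how the members moved with age in unaffected cerebellum. Of the 60 members 6 passed an adjusted p of 0.05 (10%, beside 11.3% of all tested genes). Hspa1b, Hspb1, Hspb8, Dnajb1 and Hspa2 rose and Hspa12a fell. Hspa1b, Hspb1 and Dnajb1 were DEGs (5% of members, beside 2.42% of all tested genes). The median log2 fold change of the members was 0.016.

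The rise was widest in Hspa1b, which held 35.4, 33.5, 26.4, 35.1 and 42 normalized counts at 2 months and 42.1 to 341 at 12 months. The ranges came close to touching but did not overlap (log2 fold change 1.92, SE 0.487, adjusted p = 0.017). Without replicate 1 of WT/WT at 12 months it was 1.20 (SE 0.336, adjusted p = 0.0142), and with surrogate variables in edgeR 1.73 (SE 0.535, adjusted p = 0.0663). This call of Hspa1b held in 27 of 30 alternative fits. It was lost with surrogate variables in either tool and in a fit of only the 2 groups compared. Hspb1 rose from 50.5 to 95.2 normalized counts at 2 months to 78.2 to 258 at 12 months, with overlap (log2 fold change 1.12, SE 0.272, adjusted p = 0.0101).

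Hspb8 rose from 392 to 466 normalized counts at 2 months to 505 to 624 at 12 months, with every older WT/WT mouse above every younger one (log2 fold change 0.40, SE 0.0875, adjusted p = 0.00383). Hspa12a fell from 2182 to 2262 to 1802 to 2012, also without overlap (log2 fold change -0.21, SE 0.044, adjusted p = 0.0031). Hspa1b, Hspb8 and Hspa12a were the 3 members without overlap (5%, beside 6.57% of all tested genes). The calls of Hspb8 and Hspa12a with age held in 30 of 30 alternative fits.

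Dnajb1 held 611, 502, 573, 457 and 544 normalized counts in WT/WT mice of 2 months, and at 12 months replicates 2 and 4, at 577 and 557, stayed inside that range. Its log2 fold change was 0.55 (SE 0.163, adjusted p = 0.0363), and 0.34 without replicate 1 of the older group (SE 0.115, adjusted p = 0.0385). The call held in 20 of 30 alternative fits and was lost when any WT/WT mouse of 2 months was left out. Hspa2, an HSP70 best known from the testis, rose from 193, 211, 299.5, 257 and 231 to 261, 335, 339.9, 348 and 286 normalized counts, with overlap (log2 fold change 0.40, SE 0.11, adjusted p = 0.0185). This call of Hspa2 held in 23 of 30 alternative fits and was lost with surrogate variables in either tool. Leaving out replicate 1 of WT/WT at 12 months raised the number of members called with age in WT/WT from 6 to 13. Of 9 tested microglia markers 7 rose with age in WT/WT mice, with summed normalized counts of 1759 to 2083 at 2 months and 2641 to 3238 at 12 months, and their part in the changes of the members was not tested.

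Within 304Q/304Q mice 2 of 60 members passed (3.33%, beside 7.2% of all tested genes), Hspa2 and Hspa12a. Hspa2 held 238, 218, 245, 245 and 280.3 normalized counts at 2 months and 376, 337, 396, 348 and 380.4 at 12 months, so that every older mouse stood above every younger one. It was the 1 DEG among the members (1.67%, beside 2.24% of all tested genes), with a log2 fold change of 0.58 (SE 0.109, adjusted p = 0.000616). Hspa12a fell from 1941 to 2086 to 1644 to 1744 normalized counts (log2 fold change -0.26, SE 0.0441, adjusted p = 0.000207). Both calls held in 30 of 30 alternative fits.

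Dnajb1 was the third member without overlap with age in 304Q/304Q mice (3 of 60, 5%, beside 7.8% of all tested genes). It held 525, 473, 497, 432 and 472 normalized counts at 2 months and 642, 544, 600.2, 591 and 801 at 12 months, with a log2 fold change of 0.40 (SE 0.164, adjusted p = 0.167). Hspb8 stood at 288 to 404 and 362 to 455 (log2 fold change 0.28, SE 0.0889, adjusted p = 0.0553) and Dnajb6 at a log2 fold change of 0.17 (SE 0.0553, adjusted p = 0.0531). Hspa1b at 0.53 (SE 0.568, adjusted p = 0.697) and Hspb1 at 0.33 (SE 0.283, adjusted p = 0.604) did not pass. With surrogate variables 8 members passed in this comparison, with edgeR and with DESeq2, among them Dnajb1, Dnajb4, Dnajb6 and Hspa8 in addition to Hspa2 and Hspa12a.

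Whether age acted differently in the genotypes was tested with the interaction of genotype and age. It passed for 0 of 60 members (2.04% of all tested genes passed), with edgeR and with DESeq2. At an unadjusted p under 0.05 there were 4 members (6.67%), beside 15.4% of all tested genes. Dnajc27 gave an interaction of 0.23 on the log2 scale (SE 0.0805, adjusted p = 0.156), Dnajc6 0.20 (SE 0.0809, adjusted p = 0.236), Hspa12b, which is enriched in endothelial cells, -0.56 (SE 0.245, adjusted p = 0.269), and Dnajb14 of the endoplasmic reticulum membrane 0.47 (SE 0.218, adjusted p = 0.311), all in edgeR. For Hspa1b it was -1.38 (SE 0.752, adjusted p = 0.389), for Hspb1 -0.78 (SE 0.392, adjusted p = 0.342) and for Hspb8 -0.12 (SE 0.125, adjusted p = 0.656). The genotype effect on these genes was thus not shown to differ between 2 and 12 months.

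The genotype effects at 2 and 12 months come from separate mice and can be set side by side. They had the same direction for 41 of 60 members (68.3%) and for 52.7% of all tested genes. Of the 6 members lower at 12 months, all had a negative log2 fold change at 2 months, of -0.78 for Hspa1b, -0.34 for Hspb8, -0.33 for Hspb1, -0.16 for Hspa5, -0.13 for Hspa12a and -0.06 for Dnajb2. Dnajc6 and Dnajc27, higher at 12 months, stood at -0.01 and -0.04. Genes are not independent replicates, and no member passed at 2 months.

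**Figure D5:**
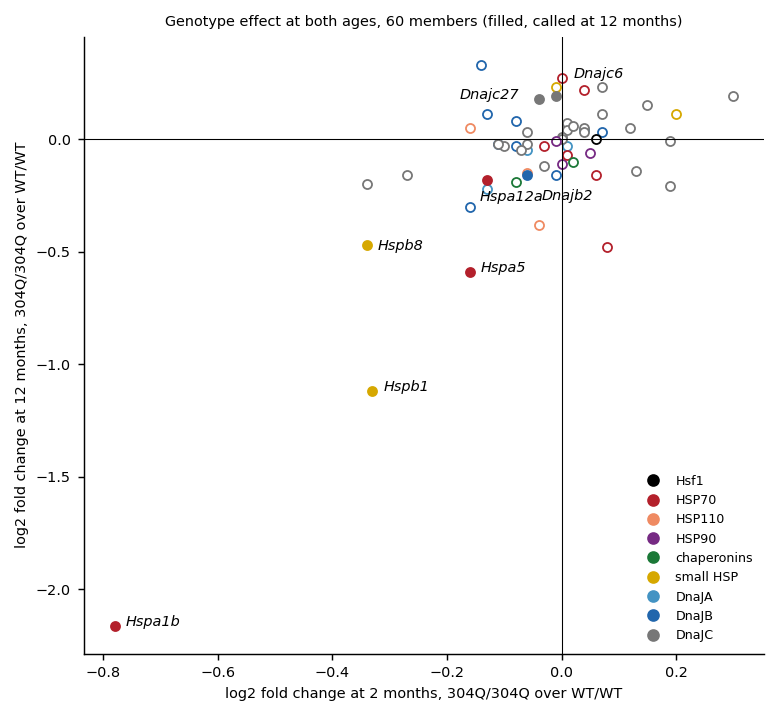
Log2 fold change of 304Q/304Q over WT/WT at 2 months (horizontal axis) and at 12 months (vertical axis) for the 60 tested members, coloured by class; filled points passed an adjusted p of 0.05 at 12 months. Hspb8 at -0.34 and -0.47 lies in the lower left, and Hspa1b at -0.78 and -2.16 lies far below the cluster of members around 0.

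The partners of the family were taken from a list of 34 co-chaperones, the proteins that deliver clients or set the pace of HSP70 and HSP90, all of them tested. At 2 months 0 of 34 passed in edgeR and 0 had an unadjusted p under 0.05. At 12 months 1 was lower and 1 was higher (5.88% in all, beside 12.3% of all tested genes). The lower one was Bag3, the exchange factor that pairs with Hspb8, with 1209, 719, 934, 779 and 1036 normalized counts in WT/WT mice and 595, 663, 614, 653 and 738 in 304Q/304Q mice. As for Hspa1b, replicates 1, 3 and 5 of WT/WT were highest (log2 fold change -0.52, SE 0.118, adjusted p = 0.00419). The higher one was Tomm70a, the mitochondrial import receptor that docks HSP70 and HSP90 (log2 fold change 0.29, SE 0.0811, adjusted p = 0.017).

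With age in WT/WT mice 4 of the 34 co-chaperones rose and 1 fell (14.7%, beside 11.3% of all tested genes). Bag3 rose from 487 to 655 normalized counts to 719 to 1209, without overlap (log2 fold change 0.79, SE 0.119, adjusted p = 0.000137). Stub1 (CHIP), the ubiquitin ligase of HSP70 clients, rose by 0.29 on the log2 scale (SE 0.071, adjusted p = 0.00839), Hspbp1 by 0.30 (SE 0.0893, adjusted p = 0.0273) and Bag6 by 0.21 (SE 0.0515, adjusted p = 0.00926), while Tomm70a fell by 0.32 (SE 0.081, adjusted p = 0.0124). In 304Q/304Q mice Bag3 was the 1 co-chaperone that passed (2.94%, beside 7.2% of all tested genes), and it rose with age (log2 fold change 0.40, SE 0.119, adjusted p = 0.0395). Its interaction was -0.39 (SE 0.168, adjusted p = 0.267), so this rise was not shown to differ between the genotypes.

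A second list held 26 chaperones outside the rule, of which 25 were tested. At 12 months 3 were lower in 304Q/304Q mice and 1 was higher (16%, beside 12.3% of all tested genes). Lower were Cryab, the small heat shock protein of glia and lens (log2 fold change -0.31, SE 0.0845, adjusted p = 0.0146), Serpinh1, the collagen chaperone (-0.45, SE 0.12, adjusted p = 0.0133), and the extracellular chaperone Clu (-0.30, SE 0.0548, adjusted p = 0.000425). Higher was Cct2, a subunit of the cytosolic chaperonin (0.14, SE 0.042, adjusted p = 0.0319). At 2 months 0 of 25 passed in edgeR, and 0 had an unadjusted p under 0.05. With age in WT/WT mice Cct4 and Clu rose, and in 304Q/304Q mice 0 of 25 passed (beside 7.2% of all tested genes), with 4 at an unadjusted p under 0.05.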

How the data were processed

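Cerebellar RNA of 20 mice was sequenced as paired-end polyA libraries. According to the study's methods the authors aligned reads with STAR to GRCm38 (Ensembl) and counted them per gene with Rsubread; the submitters' processing notes name STAR 2.4.5b, and the methods name another version. The deposited values used here are raw read counts per gene, not normalized. The strand and multi-mapping settings are not given in the sources used here.

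Groups came from the titles. Gene IDs were named with GENCODE M21, which held 29150 of 29200 IDs. Genes with a mean under 50 counts over the 20 libraries were left out, leaving 12153 genes with 99.3% of all counts. Libraries were scaled by TMM, and a model with 1 term per group was fitted with the robust quasi-likelihood test of edgeR 4.0.16 (limma 3.58.1, R 4.3.3); p-values were adjusted by Benjamini-Hochberg over all 12153 genes. The thresholds were an adjusted p of 0.05 and, for DEGs, an absolute log2 fold change of 0.5. Standard errors were derived from the F statistics. Counts brought to the mean effective library size are called normalized counts. The fit was tested on simulated data. Correlations used log2 CPM with a prior count of 2. Totals of 11385380 to 27636687 counts per library and a common biological coefficient of variation of 0.113 set the precision.

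Alternatives were DESeq2 1.42.0, surrogate variables (sva 3.50.0, 3 variables) in either tool, other size factors, other limits on low counts, fits of 2 groups, a replicate block and leaving out each mouse. Fits without robust estimation and with Hspa1a and Hspa1b summed were added after seeing the data. The members, gene lists and tests were chosen with earlier results of these data known. Members are named if they passed in any comparison, if they lead their class in level per exon length, if they were listed by name, or if they had 1 of the 3 largest changes either way. The labels do not say that same-numbered mice were related. The p-values of the main fit rest on the spread between mice within groups, with 1 estimate per gene shared by the 4 groups. For Hspa1b this spread was unequal, with a coefficient of variation of 91.7% in WT/WT at 12 months and 16.2% in WT/WT at 2 months. Correlations of same-numbered mice ran from -0.323 to 0.551, the highest for number 1 of WT/WT at 2 and 12 months. Such correlations cannot show whether same-numbered mice shared a litter or handling, and the main fit did not pair them. No libraries were duplicates (lowest chi-square per degree of freedom between replicates 4.43).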

Additional observations from a re-analysis of the deposited data

Results flagged for a closer look

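Among the members called in any comparison and Hspa1a, 11 in all, and the library totals, each examined in 4 groups of 5 mice, 5 of 48 groups held a mouse whose gap to its nearest neighbour exceeded 0.71 of the range of its group. Chance alone flags about 1 group in 20. Of these, 2 were the inducible HSP70 pair in replicate 1 of WT/WT at 12 months, with 341 normalized counts of Hspa1b (the other 4 mice 42.1 to 123) and 266 of Hspa1a (the other 4 mice 23.8 to 84.4). Hspa1b also stood apart in replicate 3 of 304Q/304Q at 2 months, with 43.7 normalized counts against 11.8 to 18.5. In that library the choroid plexus markers summed to 35595 normalized counts, against 2011 to 2782 in the other 4 of its group, and the part of this tissue in the value of Hspa1b was not tested. Hspa5 held 4281 normalized counts in replicate 1 of WT/WT at 2 months against 2436 to 2943. The library of replicate 1 of 304Q/304Q at 2 months was the deepest of its group, with 27636687 counts.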

How the results depend on the processing

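Single values of named members were set against alternative fits in 6248 comparisons, most of them of values not called in the main fit. No called value changed its sign, which was checked for called values only. In 6061 comparisons a called value stayed called, or an uncalled value stayed uncalled and moved by at most 1 SE. A call was lost in 73 and gained in 51. In 63 an uncalled value stayed uncalled but moved further than 1 SE. For genotype at 12 months, where 8 members were called and 3 were DEGs, edgeR with surrogate variables called 5 and 1, a minimum of 1 count in all libraries together called 4, a minimum of 50 counts in every library called 5 and 1, and a fit of the 2 groups alone called 4 and 1; leaving out single mice gave 4 to 10 calls and 2 to 3 DEGs, with 4 calls without WT/WT replicate 5 or 304Q/304Q replicate 4 of 12 months and 5 without WT/WT replicate 3 or 304Q/304Q replicate 1 or 5 of that age. For age in WT/WT, with 6 calls and 3 DEGs, the fit of 2 groups gave 3 and 1, the minimum of 50 in every library left 1 DEG, and leaving out single mice gave 4 to 13 calls, the 13 without WT/WT replicate 1 of 12 months, and 2 to 3 DEGs. For age in 304Q/304Q, with 2 calls and 1 DEG, DESeq2 gave 4 calls, surrogate variables gave 8 calls and 2 DEGs in either tool, the fit of 2 groups gave 4 calls, and leaving out single mice gave 2 to 4 calls, the 4 without replicate 1 of WT/WT at 12 months. For genotype at 2 months surrogate variables called 1 member, Hspb8, in place of 0. Without the WT/WT mice of 12 months, 0 correlations with Hspa1b passed in place of 1. The minimum of 50 in every library removes low genes and leaves Hspa1b and Hspb1 out by its construction; the cause of the other shifts was not tested. With the replicate block, genotype at 12 months gave 7 calls, age in WT/WT 7 and age in 304Q/304Q 3. Same-numbered mice correlated best with each other in 2 of 20 cases, which does not settle whether the numbers pair mice. The depth leaves 11 members, Hspa1a among them, below the limit.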

Other observations

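Dnajb14, a J-domain protein of the endoplasmic reticulum membrane, showed the highest log2 fold change of the members at 12 months, 0.33 (SE 0.155, adjusted p = 0.181 in edgeR), with 2088, 1525, 1197, 1453 and 1150 normalized counts in WT/WT mice and 1567, 1959, 1962, 2102 and 1727 in 304Q/304Q mice. Here replicate 1 of WT/WT stood within the 304Q/304Q range and the other 4 stood below it. Hspa12b held 107, 119.9, 167, 120.4 and 142 against 78.2, 77.5, 118, 106 and 92.3 in the same mice (log2 fold change -0.48, SE 0.174, adjusted p = 0.0702), and Hspa13, an HSP70 of microsomes, stood at 0.27 (SE 0.146, adjusted p = 0.25). Without replicate 1 of WT/WT at 12 months, Dnajb14, Hspa12b and Hspa13 were among the 9 members called at that age.

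At 2 months the highest log2 fold change was that of Dnajc17, at 0.30 (SE 0.144, adjusted p = 0.898), with normalized counts of 89.1 to 115 in the WT/WT group and 103 to 135 in the 304Q/304Q group. Dnajc25, at -0.34 (SE 0.191, adjusted p = 0.905), and Dnajc28, at 0.19 (SE 0.144, adjusted p = 0.953), were also near the ends of the family at that age. None of these passed in edgeR at 12 months either. Hspb6, a small heat shock protein of muscle and vessels, stood at -0.01 at 2 months (SE 0.112, adjusted p = 0.994) and 0.23 at 12 months (SE 0.113, adjusted p = 0.197).

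Of the 11 members below the limit, Hspa1a held 19 to 239 raw counts per library, Hspa1l 12 to 47 and Dnajb3 3 to 25. The other 8 had means of 0.6 to 6.6 counts and at least 1 library at 0. With the limit at a mean of 10 counts, Hspa1l gave a log2 fold change of 0.20 at 12 months (SE 0.306, adjusted p = 0.743) and Dnajb3 one of 0.76 (SE 0.44, adjusted p = 0.303).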
